A study of Mus musculus with 6 samples.

Results

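The genes described here are 10 rows of a table of 21700 genes: the Fos family (Fos, Fosb, Fosl1 and Fosl2), the Jun family (Jun, Junb and Jund), and Atf3, Egr1 and Ier3. They were chosen by name, as genes that answer both tissue dissociation and growth factors, and all 10 were found and tested. RNA was measured in biliary epithelial cells, the cells that line the bile ducts, in 3 libraries from pregnant mice at dpc8 (8 days post coitum) and 3 libraries from non-pregnant mice. All mice were wild-type C57BL/6 females, and the sources used here do not give their ages. Every liver was perfused, digested with collagenase, DNase I and Dispase, and sorted by flow cytometry, and the sources used here do not give the antibodies of the gate. Levels set in the living duct and levels set during this isolation cannot be told apart, and both groups went through it.

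Fos and Jun proteins pair through a leucine zipper to form AP-1, a transcription factor that binds a short palindromic DNA site. Their genes are immediate-early genes: they are transcribed within minutes of a stimulus, from transcription factors already present in the cell, and their messengers are short-lived. Growth factors act on them through the ERK kinases and SRF, and cell stress acts through the JNK and p38 kinases. In the liver, Jun and Fos are induced when the tissue is injured or starts to regenerate, and also when cells are taken apart with enzymes.

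For Ier3, Fosl1, Fosb and Jund every pregnant library stood above every non-pregnant one, by 1.16 to 1.50 times in the group means. Fos, Jun, Junb, Egr1, Atf3 and Fosl2 overlapped between the groups. No member passed the test over all genes (limma on log2(FPKM + 1), Benjamini-Hochberg adjusted p from 0.229 to 0.988), a test that 10 of 11412 genes passed (0.0876%). None passed with limma-voom on recovered fragments either, where 1 of 11252 genes did (0.00889%). FPKM is the number of fragments per kilobase of exon, scaled between libraries. The deposited values were on a median-of-ratios scale, which differed slightly from scaling to library totals. At an unadjusted p under 0.05, 3 of the 10 members were higher (Ier3, Fosl1 and Fosb), against 7.09% of all genes tested, and 0 were lower, against 6.3%. With limma-voom, Jund joined these 3, against 7.61% of its genes. Fosb did not reach an unadjusted p under 0.05 with no filter, with array weights, or without pregnant library 1, pregnant library 3, non-pregnant library 2 or non-pregnant library 3, while Ier3 and Fosl1 did so in each of these fits. Groups without overlap, with pregnancy on the higher side, were found for 4 of the 10 members and 9.9% of all genes tested, and with pregnancy on the lower side for 0 members and 12.2%. The log2 change was above 0 for 7 of the 10 members and for 44.8% of all genes tested. The median log2 change of the members was 0.18, and that of all tested genes was -0.02. Fewer cells of a type and less RNA per cell cannot be told apart in these bulk libraries.

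The libraries held between 24446981 and 34278772 recovered fragments, and the labels name no separate animals, so the p-values reflect the spread between these particular libraries, which may be technical. Biliary markers were present in all of them, with a summed level of 10 markers between 7361 and 7856 FPKM in pregnant and between 5399 and 6823 FPKM in non-pregnant libraries. Most of each sum was Spp1. All 10 markers lay above 0 in log2 change (median 0.25), against 44.8% of all tested genes. Without overlap 7 were higher, against 9.9%, and at an unadjusted p under 0.05, 4 were higher, against 7.09%. None of the 10 passed with limma or limma-voom. The summed level of 10 endothelial markers was 20.5 to 31.9 FPKM in pregnant libraries, and 40.2, 279.8 and 19.6 FPKM in non-pregnant libraries 1 to 3, so non-pregnant library 2 stood apart. All 10 endothelial markers lay below 0 in log2 change (median -1.11) and 0 above 0, where 44.8% of all tested genes lay above 0. Of the 10, 0 passed the test with limma and 0 had an unadjusted p under 0.05. The 12 Kupffer cell (liver macrophage) markers summed to 109.6 to 183 FPKM in pregnant and 57.3 to 90.8 FPKM in non-pregnant libraries. Csf1r and Cd68, whose groups overlapped (log2 change 0.16 and 0.03), made up most of the non-pregnant sums. The median log2 change of the 10 tested was 2.40. Of these 10, 8 were higher without overlap and 8 at an unadjusted p under 0.05, against 9.9% and 7.09% of all tested genes. Several, among them Cd5l, C1qc, C1qa and Clec4f, met the filter of a mean of 1 FPKM only through the pregnant libraries. Their non-pregnant means were 0.918, 0.506, 0.804 and 0.962 FPKM. The filter thus favours markers higher in pregnancy, and the median, these counts and the passes that follow depend on it. With limma 3 of these 10 passed, all higher, against 0.0876% of all tested genes, while 0 passed with limma-voom, with no filter or with robust empirical Bayes. With a replicate block 7 of the 10 passed, where 13 of all tested genes did. With array weights 8 of the 10 passed, against 11.4% of all tested genes. With 1 library left out, 6 passed without pregnant library 3, 6 without non-pregnant library 2 and 0 in each of the other fits. The 10 hepatocyte markers summed to 2379 to 2700.3 FPKM in pregnant and 2433 to 3066 FPKM in non-pregnant libraries, most of it Alb. Of the 10 tested, 8 lay below 0 in log2 change (median -0.22) and 2 above 0, where 44.8% of all tested genes lay above 0. With limma 0 of the 10 passed. Without overlap 3 were lower and 0 higher, against 12.2% and 9.9% of all tested genes. At an unadjusted p under 0.05, 2 were lower, against 6.3%. Markers of stellate cells and fibroblasts summed to 37.3 to 43.1 FPKM in pregnant and 39.9 to 43.9 FPKM in non-pregnant libraries, most of it Rgs5. Of the 5 tested, 2 (Dcn and Reln) were lower without overlap and 0 higher, against 12.2% and 9.9% of all tested genes. The same 2 were lower at an unadjusted p under 0.05, against 6.3%, and 0 passed with limma. Markers of mesothelium summed to 24.6 to 27.6 FPKM in pregnant and 21.8 to 29.6 FPKM in non-pregnant libraries. Lymphocyte markers summed to 3.06 to 3.58 FPKM in pregnant and 1.62 to 2.16 FPKM in non-pregnant libraries, and neutrophil markers to 0.298 to 1.10 FPKM in pregnant and 0.165 to 0.866 FPKM in non-pregnant libraries. Among these markers Ly6g of neutrophils was listed at 0 in every library. The part of biliary content and of these other cells in the values of the members was not tested.

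**Figure D1:**
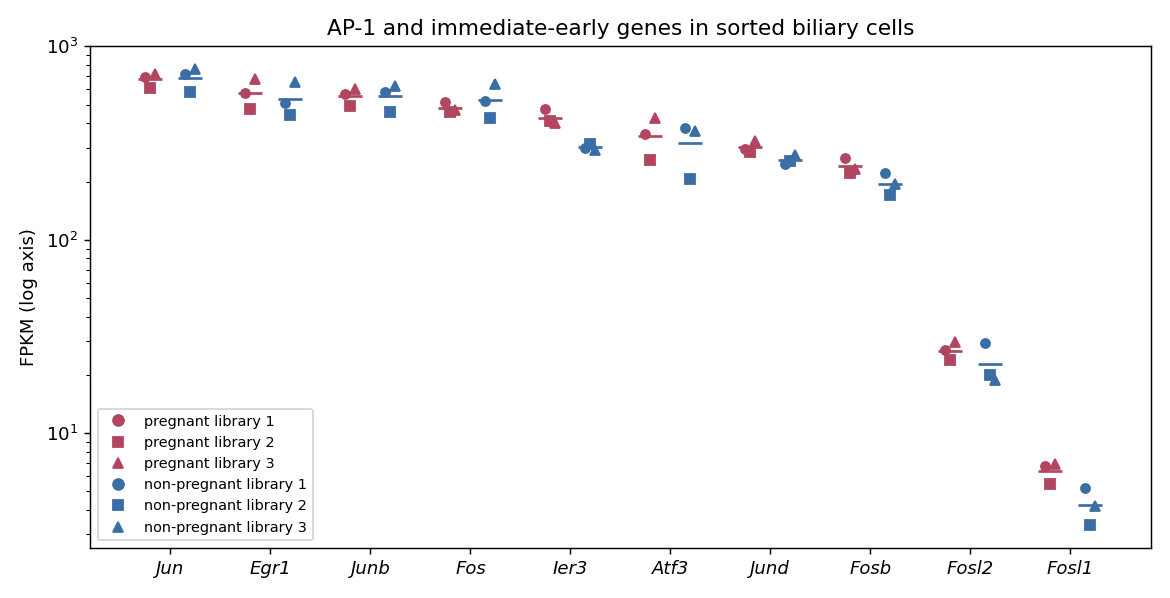
FPKM of each gene in each library, on a log axis, with genes ordered by their mean over the 6 libraries, pregnant libraries left of non-pregnant ones, and a bar at each group mean. Of the 10 genes 8 lie at or above 170.1 FPKM in every library, Fosl2 lies between 18.8 and 29.6 FPKM and Fosl1 between 3.35 and 6.88 FPKM.

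Most members were among the most abundant messengers of these cells. Ranked by mean FPKM among the 21700 genes, Jun came 16th, Egr1 24th, Junb 25th, Fos 27th, Ier3 40th, Atf3 48th, Jund 59th and Fosb 90th, while Fosl2 came 1898th and Fosl1 7553rd. Neighbours in this order often did not differ beyond their spread: the ranges over the 6 libraries of Egr1, Junb and Fos overlapped each other, as did those of Ier3 and Atf3, and those of Jund and Fosb. FPKM divides by the length of all annotated exons, and that of Fosb (6243 bases) includes a transcript that keeps an intron, so its level per length depends on this choice. The spliced form of Fosb that gives the shortened protein ΔFosB is not separated in these values.

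The promoters of Jun and Junb, whose messengers followed each other across libraries, of Fos, the partner of both proteins, and of Fosb and Ier3, whose messengers stood higher in pregnancy, are shown first. Each is the 250 bases before the RefSeq start of transcription (build GRCm38.p6), 5′ to 3′ on the gene's strand, and capitals mark every match to the motifs named after the sequences.
Fos: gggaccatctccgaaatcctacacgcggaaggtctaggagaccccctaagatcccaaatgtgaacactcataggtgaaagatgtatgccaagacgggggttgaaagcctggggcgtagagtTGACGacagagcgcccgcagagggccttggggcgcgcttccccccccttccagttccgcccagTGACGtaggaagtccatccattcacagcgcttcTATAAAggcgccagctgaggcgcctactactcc
Jun: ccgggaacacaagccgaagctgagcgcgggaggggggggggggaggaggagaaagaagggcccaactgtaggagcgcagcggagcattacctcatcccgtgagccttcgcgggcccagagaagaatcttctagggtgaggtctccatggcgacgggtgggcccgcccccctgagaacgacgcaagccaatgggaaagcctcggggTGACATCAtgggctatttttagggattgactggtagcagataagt
Junb: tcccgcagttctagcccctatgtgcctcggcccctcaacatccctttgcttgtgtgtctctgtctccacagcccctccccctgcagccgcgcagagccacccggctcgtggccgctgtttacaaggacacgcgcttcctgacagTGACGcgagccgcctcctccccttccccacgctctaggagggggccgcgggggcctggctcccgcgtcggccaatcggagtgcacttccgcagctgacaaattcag
Fosb: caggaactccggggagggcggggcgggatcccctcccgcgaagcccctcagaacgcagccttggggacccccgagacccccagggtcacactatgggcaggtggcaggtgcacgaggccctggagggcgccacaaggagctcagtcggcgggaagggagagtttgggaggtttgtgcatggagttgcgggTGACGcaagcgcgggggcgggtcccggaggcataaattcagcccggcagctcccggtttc
Ier3: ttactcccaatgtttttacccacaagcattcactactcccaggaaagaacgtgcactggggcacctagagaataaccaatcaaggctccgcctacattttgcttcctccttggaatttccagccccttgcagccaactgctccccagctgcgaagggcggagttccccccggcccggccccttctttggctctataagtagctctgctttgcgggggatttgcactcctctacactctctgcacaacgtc
The Fos window is chr12:85473640-85473889 (plus strand), the Jun window chr4:95052223-95052472 (minus), the Junb window chr8:84978749-84978998 (minus), the Fosb window chr7:19310046-19310295 (minus) and the Ier3 window chr17:35821463-35821712 (plus).

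On either strand, these windows were searched for the AP-1 site TGANTCA, the CRE-type site TGANNTCA, the core TGACG that is shared by CRE sites, the TATA box TATAAA and the CArG box bound by SRF. A full CRE holds both TGANNTCA and TGACG. The Jun window held TGACATCA at positions -45 to -38, counted back from -1 at the base before the start. The core TGACG lay at -129 to -125 and at -66 to -62 in Fos, at -106 to -102 in Junb and at -60 to -56 in Fosb, and Fos also held TATAAA at -33 to -28. The Ier3 window held none of these motifs. Of the 8 members with a window, 2 held TGANNTCA, 4 held TGACG, 1 held TATAAA and 0 held TGANTCA or a CArG box. Among all 32851 windows of the same length, 11.9% held TGANNTCA, 17.8% TGACG, 12.4% TATAAA, 6.75% TGANTCA and 1.47% a CArG box. The RefSeq start is not the gene start of the annotation for every member. The Jund and Junb windows lie upstream of their annotated genes with a gap. The Fosl2 and Atf3 windows lie inside their annotated genes, and the Ier3 and Fosb windows partly overlap theirs. Such matches describe letters only, and sites outside the windows were not searched.

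Jun, which encodes the central AP-1 subunit, had 698, 609 and 722 FPKM in pregnant libraries 1 to 3, against 717, 584 and 767 FPKM in non-pregnant libraries 1 to 3. The groups overlapped throughout, and library 2 was the lowest of each group. The group means were 676 ± 59.3 FPKM in pregnant and 689 ± 94.4 FPKM in non-pregnant libraries (SD, n = 3 each), with a log2 change of -0.02 (95% interval from -0.35 to 0.31; limma adjusted p = 0.952). Jun (ENSMUSG00000052684) spans chromosome 4 from 95049034 to 95052222 in mm10. Of its exonic bases 7.28% are shared with Junos, an antisense gene, and whether the counting used strand is not given in the sources used here.

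Junb, a Jun paralogue that activates fewer promoters on its own, had 565, 491 and 599 FPKM in pregnant libraries, against 584, 460.5 and 627 FPKM in non-pregnant libraries. It followed Jun closely: relative to their own means over the 6 libraries, Jun and Junb differed by at most 0.04 on the log2 scale in any library, the smallest such difference among the 45 pairs of members. Its log2 change was -0.01 (95% interval from -0.35 to 0.34; limma adjusted p = 0.988). The directions of Jun and Junb were not stable to scaling, since upper quartile scaling gave 0.02 for Jun and 0.03 for Junb. Junb (ENSMUSG00000052837) spans chromosome 8 from 84974484 to 84978718, and its exons share 173 of 2301 bases with Prdx2 on the opposite strand.

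Jund, the Jun family member that is expressed in resting cells and is the least inducible, had 295, 283 and 324 FPKM in pregnant libraries, against 245, 256 and 273 FPKM in non-pregnant libraries. Every pregnant library lay above every non-pregnant one. The means were 301 ± 20.9 FPKM in pregnant and 258 ± 14.2 FPKM in non-pregnant libraries (SD, n = 3 each). The ratio was 1.16 and the log2 change 0.22 ± 0.098 (SE; adjusted p = 0.386 with limma). An antisense gene, Gm11175, covers 52.6% of its exonic bases, so without knowledge of strand in the counting its value is uncertain. Jund (ENSMUSG00000071076) spans chromosome 8 from 70698949 to 70700616.

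Fos, the most inducible partner of Jun, had 517, 458 and 472 FPKM in pregnant libraries, against 521, 425 and 641 FPKM in non-pregnant libraries. The lowest and the highest of its 6 values were both non-pregnant. The means were 482 ± 31.0 FPKM in pregnant and 529 ± 108 FPKM in non-pregnant libraries (SD, n = 3 each), and the log2 change was -0.12 (95% interval from -0.48 to 0.25; limma adjusted p = 0.739). Without non-pregnant library 3, the highest, it was 0.03, and without non-pregnant library 2, the lowest, it was -0.26. Fos (ENSMUSG00000021250) spans chromosome 12 from 85473890 to 85477273, and no annotated gene overlaps it.

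Fosb, whose products include the long-lived ΔFosB, had 266, 222 and 233 FPKM in pregnant libraries, against 221, 170.1 and 194 FPKM in non-pregnant libraries. The groups did not overlap, although the lowest pregnant value and the highest non-pregnant one lay close together. The means were 240.4 ± 23.0 FPKM in pregnant and 195 ± 25.4 FPKM in non-pregnant libraries (SD, n = 3 each). The ratio was 1.23 and the log2 change 0.30 ± 0.125 (SE; adjusted p = 0.362 with limma). Fosb (ENSMUSG00000003545) spans chromosome 7 from 19302696 to 19310051 and is overlapped by no other gene.

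Fosl1, which encodes Fra-1, a Fos protein without the activation domain of Fos, was the least abundant member. It had 6.78, 5.46 and 6.88 FPKM in pregnant libraries, against 5.20, 3.35 and 4.22 FPKM in non-pregnant libraries, and all pregnant values were above all non-pregnant ones. The means were 6.37 ± 0.791 FPKM in pregnant and 4.26 ± 0.927 FPKM in non-pregnant libraries (SD, n = 3 each). The ratio was 1.50 and the log2 change 0.50 ± 0.143 (SE; adjusted p = 0.295 with limma). The lowest library held 206 of its fragments, with a 95% counting interval from 179 to 236 (exact Poisson, counting error only). Its exons share 57.2% of their bases with Ccdc85b on the opposite strand, which stood at a mean of 2.697 FPKM in pregnant and 2.97 FPKM in non-pregnant libraries. Fosl1 (ENSMUSG00000024912) spans chromosome 19 from 5447547 to 5455946.

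Fosl2, which encodes the related Fra-2, had 26.8, 23.8 and 29.6 FPKM in pregnant libraries, against 29.2, 19.9 and 18.8 FPKM in non-pregnant libraries. Non-pregnant library 1 lay within the pregnant range, and the other non-pregnant libraries lay below it. The means were 26.7 ± 2.88 FPKM in pregnant and 22.6 ± 5.72 FPKM in non-pregnant libraries (SD, n = 3 each). The log2 change was 0.25 ± 0.164 (SE; adjusted p = 0.494 with limma), and it was 0.44 without non-pregnant library 1 and -0.08 with array weights. Fosl2 (ENSMUSG00000029135) spans chromosome 5 from 32135801 to 32157842.

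Ier3, a stress-induced gene that protects cells from apoptosis and is also a target of NF-kB, had the smallest p of the members. It had 473, 411 and 402 FPKM in pregnant libraries, against 297, 314 and 289.9 FPKM in non-pregnant libraries. All 3 pregnant libraries stood above the non-pregnant range. The means were 429 ± 38.6 FPKM in pregnant and 300.2 ± 12.2 FPKM in non-pregnant libraries (SD, n = 3 each), a ratio of 1.43. The log2 change was 0.51 ± 0.104 (SE; limma unadjusted p = 0.00135, adjusted p = 0.229). Of the alternatives run, Ier3 passed only where libraries were weighted by their own spread (array weights), with a limma adjusted p of 0.011, in a range from 0.011 to 0.66 over its alternatives. That fit called 1301 of 11412 genes (11.4%). Ier3 (ENSMUSG00000003541) spans chromosome 17 from 35821684 to 35822923, with no overlapping gene.

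Atf3, a stress-induced bZIP factor that pairs with Jun proteins and often represses, had 350.4, 257 and 428 FPKM in pregnant libraries, against 379.9, 205 and 364 FPKM in non-pregnant libraries. It was the most variable member, with an SD of 24.8% of the mean in pregnant and 30.5% in non-pregnant libraries. Its log2 change was 0.15 (95% interval from -0.48 to 0.77; limma adjusted p = 0.807), and it was -0.14 without non-pregnant library 2, -0.02 without pregnant library 3 and -0.16 with array weights. Atf3 (ENSMUSG00000026628) spans chromosome 1 from 191170296 to 191218039. Egr1, a zinc finger factor downstream of ERK and SRF, had 575, 477 and 679 FPKM in pregnant libraries, against 512, 442 and 656 FPKM in non-pregnant libraries. In both groups Egr1 was lowest in library 2 and highest in library 3. Its log2 change was 0.11 (95% interval from -0.32 to 0.54; limma adjusted p = 0.790), and it was -0.02 without non-pregnant library 2 and -0.02 without pregnant library 3.

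**Figure D2:**
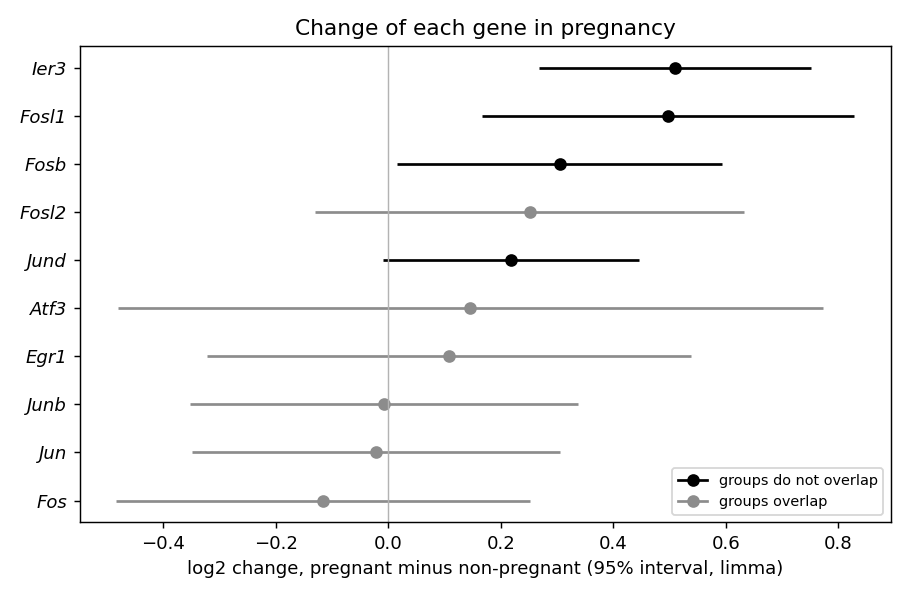
Log2 change of each gene, pregnant minus non-pregnant, with its 95% interval from limma; black marks genes whose groups do not overlap. The intervals of Ier3, Fosl1 and Fosb lie above 0, that of Jund reaches -0.01, and the other 6 span 0 more widely.

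For the genes whose groups overlapped, the 95% intervals can be read as multiples of the non-pregnant level, on the log2(FPKM + 1) scale. They ran from 0.786 to 1.24 for Jun, 0.784 to 1.26 for Junb and 0.715 to 1.19 for Fos. Those of Egr1 (0.800 to 1.45), Fosl2 (0.914 to 1.55) and Atf3 (0.717 to 1.71) reached further up. These intervals do not show that the levels were equal.

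The summed levels of the families overlapped between the groups, while the shares of Fosb, Fos and Jun in them did not. The Jun family summed to 1529 ± 133 FPKM in pregnant and 1504 ± 187 FPKM in non-pregnant libraries (SD, n = 3 each), and the Fos family to 756 ± 55.4 FPKM in pregnant and 751 ± 122 FPKM in non-pregnant libraries. Fosb made up 32.6%, 31.3% and 31.5% of the Fos family sum in pregnant libraries 1 to 3, against 28.5%, 27.5% and 22.6% in non-pregnant libraries 1 to 3, without overlap. Fos itself made up 63.3%, 64.6% and 63.6% in pregnant libraries, against 67.1%, 68.7% and 74.7% in non-pregnant libraries. Fos and Fosb hold nearly all of this sum, so the share of Fos falls where that of Fosb rises. The lack of overlap in the Fos share is therefore not a separate result. Jun made up 44.8%, 44.05% and 43.9% of the Jun family sum in pregnant libraries, against 46.4%, 44.9% and 45.99% in non-pregnant libraries, so the nearest values of the groups lay close together. Jund made up 18.9%, 20.5% and 19.7% of the Jun family sum in pregnant libraries, against 15.9%, 19.7% and 16.4% in non-pregnant libraries, where the groups overlapped. The shares within the Jun family also depend on each other, so that of Jun is not separate from those of Junb and Jund. All these shares use the same values as the gene by gene account and were not tested.

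Several members shared a pattern from library to library. In pregnant libraries, library 2 was the lowest of its group for 9 of the 10 members and for 32.1% of all tested genes. In non-pregnant libraries, library 2 was the lowest for 7 of the 10, against 35.8% of all tested genes. The same 7 members (Fos, Fosb, Fosl1, Jun, Junb, Atf3 and Egr1) were lowest in library 2 of both groups, as were 10.1% of all tested genes. The replicate numbers are not known to link a pregnant with a non-pregnant library. Non-pregnant library 2 also held the endothelial transcripts given above, 279.8 FPKM summed, against 19.6 to 40.2 FPKM in the other 5 libraries, while pregnant library 2, with 31.9 FPKM, did not stand apart in them. The part of the endothelial transcripts was not tested. In non-pregnant libraries, library 3 was the highest for 5 of the 10 members and for 43.4% of all tested genes. When non-pregnant library 2 was left out, 2 members were higher at an unadjusted p under 0.05 (Ier3 and Fosl1), against 11.7% of all tested genes. With non-pregnant library 3 left out there were 3 (Ier3, Fosl1 and Jund), against 6.26%. The members' median log2 change was 0.08 and 0.26 in these fits, and 0.07 with pregnant library 3 left out.

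**Figure D3:**
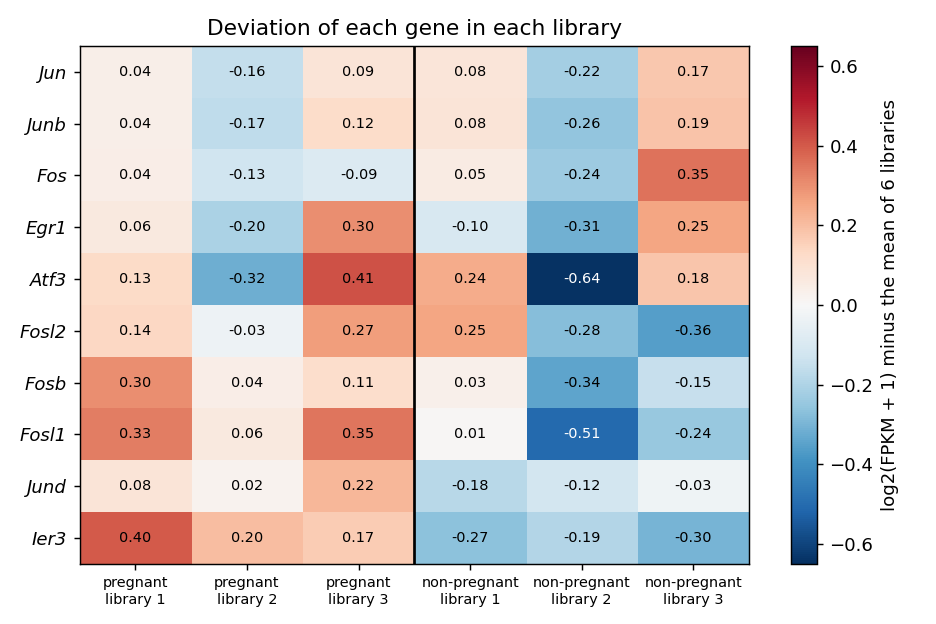
Log2(FPKM + 1) of each gene in each library, less its mean over the 6 libraries, with pregnant libraries left of the line. Jun and Junb share one pattern, with library 2 low in both groups, whereas Ier3 is above 0 in all 3 pregnant libraries and below 0 in all 3 non-pregnant ones.

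The spread within a group was larger in the non-pregnant libraries for 8 of the 10 members, as it was for 75.2% of all tested genes. The median SD of the members was 9.79% of the mean in pregnant and 17.9% in non-pregnant libraries, and that of all tested genes was 6.21% in pregnant and 11.2% in non-pregnant libraries.

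Likeness to Fos and to Jun was measured over the 6 libraries as the largest difference, in any library, between the log2(FPKM + 1) deviations of the genes from their own means. The genes most like Jun were Anks6 (0.03), which encodes a protein of primary cilia, Etv3 (0.04), an ETS family repressor, Kitl (0.04), the ligand of the receptor Kit, Junb (0.04) and Cwc25 (0.06), a splicing factor. Those most like Fos were Samd8 (0.05), Fancm (0.06), a DNA repair helicase, Pi4k2a (0.08), a lipid kinase, Glmn (0.08) and Mpzl2 (0.08), an adhesion protein. All of these except Junb lay below 17 FPKM, where the pseudocount shrinks deviations. Kitl stood at 7.35, 6.51 and 8.05 FPKM in pregnant libraries, against 7.98, 6.01 and 8.47 FPKM in non-pregnant libraries.

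Other immediate-early genes included several that stood higher in pregnancy, and none passed. Of the 30 tested, 12 were higher and 2 were lower at an unadjusted p under 0.05, against 7.09% and 6.3% of all tested genes, and 0 passed the adjusted test with limma or with limma-voom on recovered fragments. Their median log2 change was 0.21, with 21 of 30 above 0, against 44.8% of all tested genes. Sik1, a salt-inducible kinase induced by cAMP, had 76.4, 69.3 and 83.2 FPKM in pregnant libraries, against 64.6, 53.0 and 55.4 FPKM in non-pregnant libraries (log2 change 0.40 ± 0.106, SE; limma adjusted p = 0.295). Egr3, a paralogue of Egr1, stood at 4.64 ± 0.701 FPKM in pregnant and 3.18 ± 0.445 FPKM in non-pregnant libraries (SD, n = 3 each). The growth regulator Myc stood at 81.0 ± 5.48 FPKM in pregnant and 65.5 ± 5.12 FPKM in non-pregnant libraries. Klf6, a zinc finger factor, stood at 172 ± 24.3 FPKM in pregnant and 131 ± 13.9 FPKM in non-pregnant libraries. For all 4 of these genes, named for the smallest p of the list, the groups did not overlap. In the whole list 9 of the 30 were higher and 1 lower without overlap, against 9.9% and 12.2% of all tested genes. The 12 became 4 without pregnant library 1, 3 without pregnant library 3 and 7 without non-pregnant library 2, where 4.08%, 3.8% and 11.7% of all tested genes were higher. With array weights 4 of the 30 passed, Myc and Egr3 higher and Arc and Cebpd lower, near the share of 11.4% over all tested genes. Library 2 was the lowest of both groups for 18 of the 30 and for 10.1% of all tested genes.

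Of 17 listed targets of AP-1, 8 passed the filter on low values, as did 52.6% of all 21700 genes, and the matrix protease genes Mmp3, Mmp9, Mmp10 and Mmp13 were not among them. Of the 8, 4 were higher at an unadjusted p under 0.05 and 0 lower, against 7.09% and 6.3% of all tested genes, with a median log2 change of 0.27. None passed with limma or limma-voom, and 3 passed with array weights, which called 11.4% of all tested genes. Hmox1, the haem-degrading oxygenase, which is also strongly expressed by macrophages, had 5.45, 4.38 and 4.83 FPKM in pregnant libraries, against 2.83, 2.68 and 2.29 FPKM in non-pregnant libraries. Its log2 change was 0.71 ± 0.102 (SE; limma adjusted p = 0.0854). Without non-pregnant library 2 it passed (limma adjusted p = 0.0402), in a fit that called 133 of all tested genes. Hmox1 was also among the 3 that passed with array weights (limma adjusted p = 0.00738). Over the alternatives its adjusted p ranged from 0.00738 to 0.424. Kupffer cell markers differed between the groups in the same direction, by a median log2 change of 2.40 over the 10 tested. Several of those markers met the filter only through the pregnant libraries, and their part in the Hmox1 value was not tested. The cytokine gene Lif stood at 2.63 ± 0.222 FPKM in pregnant and 1.60 ± 0.440 FPKM in non-pregnant libraries (SD, n = 3 each). Ccnd1, which encodes cyclin D1, had 153, 151 and 234 FPKM in pregnant libraries, against 76.7, 129.9 and 33.0 FPKM in non-pregnant libraries. Vegfa, the vascular growth factor gene, stood at 213 ± 9.38 FPKM in pregnant and 169 ± 24.6 FPKM in non-pregnant libraries.

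**Figure D4:**
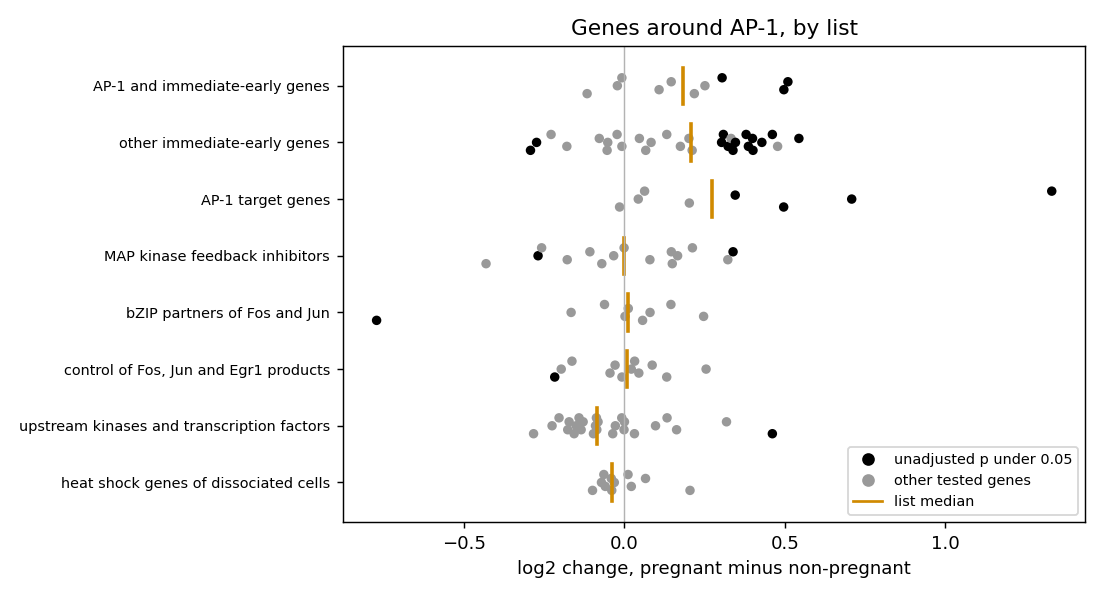
Log2 change of each tested gene, pregnant minus non-pregnant, for the 10 genes and for lists of related genes; black points have an unadjusted p under 0.05 and the bar is the list median. The medians are 0.18 for the AP-1 and immediate-early genes, 0.21 for the other immediate-early genes, 0.27 for AP-1 targets and -0.04 for heat shock genes.

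Heat shock genes, which are also known to be induced in dissociated tissue, had summed levels that overlapped between the groups. Of 11 tested, 0 were higher and 0 lower at an unadjusted p under 0.05 (7.09% and 6.3% of all tested genes), and 0 passed with limma or limma-voom (median log2 change -0.04). Their summed level was 1133, 1078 and 1165 FPKM in pregnant libraries, against 1104, 1131 and 1173 FPKM in non-pregnant libraries. Hspe1, a mitochondrial chaperonin subunit, had the smallest p of the list, at 15.9 ± 1.42 FPKM in pregnant and 13.7 ± 1.32 FPKM in non-pregnant libraries (SD, n = 3 each; limma adjusted p = 0.398). With array weights Hspe1 alone of the 11 passed, on the higher side, while 11.4% of all tested genes passed. Dnajb1, Hsp90aa1 and Hspa1a, cytosolic chaperone genes, stood at 33.5 ± 2.39, 91.0 ± 2.79 and 30.7 ± 3.70 FPKM in pregnant libraries. In non-pregnant libraries they stood at 36.1 ± 4.81, 95.1 ± 1.71 and 29.2 ± 2.18 FPKM.

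Feedback inhibitors of MAP kinases, which shut off the signal that induces Fos and Egr1, had a median log2 change of -0.00032 over 15 tested genes. At an unadjusted p under 0.05, 1 was higher and 1 lower, where all tested genes gave 7.09% and 6.3%, and 0 passed with limma or limma-voom. With array weights 3 of the 15 passed, all lower (Spry2, Spred1 and Errfi1), while 11.4% of all tested genes passed. Dusp10, a phosphatase for JNK and p38, stood at 17.3 ± 1.21 FPKM in pregnant and 13.7 ± 2.79 FPKM in non-pregnant libraries (SD, n = 3 each). Spred1, an inhibitor of the Ras pathway, stood at 13.4 ± 1.21 FPKM in pregnant and 16.4 ± 2.25 FPKM in non-pregnant libraries. Spred3 stood at 4.56 ± 0.462 FPKM in pregnant and 3.79 ± 0.255 FPKM in non-pregnant libraries, and Spry2, another inhibitor of receptor signalling, at 34.4 ± 1.39 FPKM in pregnant and 41.6 ± 6.60 FPKM in non-pregnant libraries.

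Upstream kinases and transcription factors had a median log2 change of -0.09 over 26 tested genes, with 7 above 0, against 44.8% of all tested genes. At an unadjusted p under 0.05, 1 was higher and 0 lower, where all tested genes gave 7.09% and 6.3%, and 0 passed with limma or limma-voom. The higher one was Srf, the serum response factor, which is itself an immediate-early gene and stands in both lists. It had 66.5, 51.3 and 71.9 FPKM in pregnant libraries, against 54.0, 38.8 and 44.1 FPKM in non-pregnant libraries (log2 change 0.46 ± 0.158, SE; limma adjusted p = 0.315). The stress kinase gene Map3k5 stood at 23.6 ± 1.62 FPKM in pregnant and 27.8 ± 3.60 FPKM in non-pregnant libraries (SD, n = 3 each). Elk1, a partner of SRF, stood at 3.64 ± 0.328 FPKM in pregnant and 4.22 ± 0.153 FPKM in non-pregnant libraries, and Rps6ka3, a kinase activated by ERK, at 12.7 ± 0.760 FPKM in pregnant and 14.2 ± 0.877 FPKM in non-pregnant libraries. For these 3 genes, named for their small p, every pregnant library lay below every non-pregnant one. In the whole list 4 of the 26 were lower and 0 higher without overlap, against 12.2% and 9.9% of all tested genes. With array weights 1 of the 26 passed, Map3k5 on the lower side, while 11.4% of all tested genes passed.

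Of the other bZIP proteins that can pair with Fos or Jun, 9 of 13 were tested, with a median log2 change of 0.01, and 0 passed with limma or limma-voom. With array weights 1 of the 9 passed, Maf on the lower side, while 11.4% of all tested genes passed. Maf alone had an unadjusted p under 0.05, on the lower side, where 6.3% of all tested genes lay. It had 4.03, 4.37 and 3.30 FPKM in pregnant libraries, against 6.13, 11.8 and 5.33 FPKM in non-pregnant libraries, and was highest in non-pregnant library 2, which also held the most endothelial transcripts (their part was not tested). Atf7 stood at 15.9 ± 0.900 FPKM in pregnant and 17.99 ± 1.82 FPKM in non-pregnant libraries (SD, n = 3 each), Jdp2, a repressor of AP-1, at 12.7 ± 0.997 FPKM in pregnant and 11.4 ± 1.19 FPKM in non-pregnant libraries, and the small Maf protein gene Mafk at 52.8 ± 7.90 FPKM in pregnant and 44.6 ± 9.04 FPKM in non-pregnant libraries.

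Genes that control the products of Fos, Jun and Egr1 had a median log2 change of 0.01 over 12 tested genes, and 0 passed with limma or limma-voom. The ubiquitin ligase gene Itch, whose protein marks Jun proteins for degradation, was the only one with an unadjusted p under 0.05, on the lower side (6.3% of all tested genes), at 13.4 ± 0.552 FPKM in pregnant and 15.8 ± 1.68 FPKM in non-pregnant libraries (SD, n = 3 each; limma adjusted p = 0.362). Cop1, another ligase acting on Jun, stood at 1.68 ± 0.0687 FPKM in pregnant and 2.003 ± 0.0856 FPKM in non-pregnant libraries. These 2 of the 12 were lower without overlap, where 12.2% of all tested genes lay. Zfp36, which encodes a protein that destabilises Fos and other short-lived messengers, stood at 207 ± 27.5 FPKM in pregnant and 176 ± 41.6 FPKM in non-pregnant libraries. Its paralogue Zfp36l1 stood at 248 ± 13.2 FPKM in pregnant and 227 ± 24.6 FPKM in non-pregnant libraries.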

How the data were processed

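Per the labels' protocols, libraries came from a KAPA RNA HyperPrep kit that removes ribosomal RNA (RiboErase). The authors deposited FPKM values, 1 column per sample. Build mm10 and the tools STAR 2.7.9a, HTSeq 0.13.5, cutadapt 3.4 and DESeq2 1.30.1 appear in the submitters' processing notes, without their roles. Median-of-ratios factors computed from the deposited FPKM were 1 in all 6 libraries, so the values are already on that scale. FPKM times the union exon length in GENCODE vM21 was a whole multiple of 1 step per library, within 0.01, for 98.5% of values above 0. This gave the recovered fragments, which carried no molecular identifiers. They were summed over the 21410 genes with whole multiples in every library.

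Groups and replicate numbers came from the sample titles. The 11412 genes whose mean over the libraries was 1 FPKM or more were tested two-sided as log2(FPKM + 1) with limma 3.58.1 (trended empirical Bayes, R 4.3.3), pregnant minus non-pregnant, with Benjamini-Hochberg adjustment and a threshold of 0.05. A pseudocount of 1 FPKM understates changes of low genes. The members and lists were chosen with earlier results of these data known. Named genes are the 10 members, up to 4 genes per list with the smallest p, and the 5 genes most like Fos and most like Jun. Promoters are from RefSeq (8 of 10 members had a window that was used). Tables and figures used Python 3.11.15, pandas 2.3.3, scipy 1.17.1 and matplotlib 3.10.9. Alternatives were other pseudocounts, filters and scalings, a replicate block, robust empirical Bayes, array weights, limma-voom on recovered fragments and leaving out each library. Scaling to library totals was chosen after seeing the data.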

Additional observations from a re-analysis of the deposited data

How the results depend on the processing

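The same-numbered libraries did not deviate together (correlations of deviations of 0.07, 0.02 and -0.14 for numbers 1 to 3, and no library correlated best with its own number), and the replicate block gave 13 genes past the threshold, against 10 without it, with 0 members. Non-pregnant library 3 carries the number 4 in its description, so its number, and with it the block, rests on the title. The number of genes past the threshold was 0 with no filter (2258 at an unadjusted p under 0.05), 5 with robust empirical Bayes, 1 with limma-voom and 1301 with array weights. Array weights also gave 1 member past it, Ier3 (log2 change 0.54), and 3640 genes at an unadjusted p under 0.05, against 1528 otherwise. Leaving out 1 library at a time gave 0 to 133 genes past the threshold, 727 to 2744 at an unadjusted p under 0.05 and 3270 to 5001 without overlap between groups, each highest without non-pregnant library 2. In those fits 0 members passed. Upper quartile scaling moved the genes at an unadjusted p under 0.05 to 1039 higher and 495 lower, against 809 higher and 719 lower as deposited.

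The directions of Ier3, Fosl1, Fosb and Jund held in all 18 alternatives, but Fosb overlapped between groups after quantile normalisation. The others turned in some. Jun gave 0.015 with upper quartile scaling, and Junb gave 0.029 with upper quartile scaling, 0.0032 with quantile normalisation, 0.0019 with library totals and 0.0054 with limma-voom. With array weights Fosl2 gave -0.083 and Atf3 -0.16. Leaving out 1 library, the log2 change ran from -0.14 to 0.060 for Jun, -0.14 to 0.084 for Junb, -0.26 to 0.033 for Fos, -0.14 to 0.34 for Atf3 and -0.022 to 0.26 for Egr1. The cause was not tested.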
